A study of Homo sapiens with 16 samples.

Results

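The transcription of 10 genes of the integrated stress response (GDF15, ATF3, ATF4, DDIT3, DDIT4, TRIB3, CHAC1, ASNS, SESN2 and PPP1R15A) was followed in LNCaP cells after ionizing radiation and enzalutamide. The genes were chosen by name as ATF4-linked stress genes, some of them also targets of p53. All 10 were found among the 60605 Ensembl identifiers of each of 2 count tables, and all 10 passed the filter on low counts in both batches. LNCaP is an established androgen-responsive human prostate cancer line that retains wild-type p53, and enzalutamide is an antiandrogen drug. PRO-seq, a nuclear run-on assay, counts engaged RNA polymerases along each gene, so the values below are transcription and not mRNA abundance.

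The 16 libraries fall into 6 groups of 2 replicates each. Batch 1 compared mock-treated LNCaP cells (replicates 1 and 2) with cells given 6 Gy (replicates 1 and 2). Each batch 1 replicate has a t1 and a t2 library, which were summed, and the labels do not say what t stands for. Batch 2 (replicates 3 and 4 of every group) compared DMSO vehicle, vehicle with 6 Gy, 10 µM enzalutamide, and 10 µM enzalutamide with 6 Gy. Treatment lasted 90 min, with radiation at 30 min and collection 60 min after it. These times are given for the DMSO and enzalutamide arms only. All groups are 1 cell line, and no label says that the replicates were separate cultures, so p-values measure the spread between these samples, which may be technical. Totals were 3438642 to 9363458 counts per library in batch 1 and 10494563 to 19905824 in batch 2. No pair of libraries of a group agreed within sampling noise. The luminal prostate markers HOXB13, FOLH1, KRT8 and KRT18 had at least 32.1 CPM (counts scaled to library size, TMM-adjusted within each batch) in every replicate. KLK3 averaged 179 CPM in mock and 15.2 CPM in vehicle cells. Markers of leukocytes (PTPRC, at most 0.900 CPM) and endothelium (PECAM1, at most 5.36 CPM) were low, as were VIM (at most 6.85 CPM) and COL1A1 (at most 10.6 CPM).

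In the integrated stress response, kinases that sense amino acid shortage, endoplasmic reticulum stress, double-stranded RNA or haem shortage phosphorylate the translation factor eIF2, which lowers most protein synthesis and favours translation of ATF4. ATF4, a bZIP transcription factor, then binds CCAAT-enhancer-binding protein-ATF response elements with partner factors and induces genes of amino acid supply, redox balance and feedback. Ionizing radiation acts through another route that meets it at some genes: p53, stabilised by DNA damage, directly activates GDF15 and SESN2, which ATF4 can also induce.

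The promoter sequences of 4 members are printed below. GDF15 and SESN2 were chosen because they rose most after radiation, CHAC1 because it showed the largest difference with enzalutamide, and ASNS as the textbook ATF4 target. Each run is the 250 bases before the RefSeq start on GRCh38.p14, read 5′ to 3′ on the strand of the gene. Capitals mark the letters TGATGNAA, the core of the ATF4 element, on either strand (on the minus strand of the run in CHAC1). The positions are chr19:18385908-18386157 on the plus strand for GDF15, chr1:28259268-28259517 on the plus strand for SESN2, chr15:40953221-40953470 on the plus strand for CHAC1 and chr7:97872409-97872658 on the minus strand for ASNS.
GDF15: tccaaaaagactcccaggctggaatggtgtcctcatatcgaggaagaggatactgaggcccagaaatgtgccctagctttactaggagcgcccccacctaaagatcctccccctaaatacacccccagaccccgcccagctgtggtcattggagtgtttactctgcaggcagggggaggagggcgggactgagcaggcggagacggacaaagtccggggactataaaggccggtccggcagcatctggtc
SESN2: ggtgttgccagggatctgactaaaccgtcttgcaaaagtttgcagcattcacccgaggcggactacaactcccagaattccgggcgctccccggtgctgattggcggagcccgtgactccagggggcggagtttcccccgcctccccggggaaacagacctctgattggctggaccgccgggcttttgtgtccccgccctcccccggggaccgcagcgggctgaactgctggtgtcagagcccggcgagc
CHAC1: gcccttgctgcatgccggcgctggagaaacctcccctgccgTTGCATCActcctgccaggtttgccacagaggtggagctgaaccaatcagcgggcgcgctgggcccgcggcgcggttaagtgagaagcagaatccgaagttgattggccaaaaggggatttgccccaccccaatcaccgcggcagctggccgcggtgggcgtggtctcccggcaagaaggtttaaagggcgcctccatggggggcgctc
ASNS: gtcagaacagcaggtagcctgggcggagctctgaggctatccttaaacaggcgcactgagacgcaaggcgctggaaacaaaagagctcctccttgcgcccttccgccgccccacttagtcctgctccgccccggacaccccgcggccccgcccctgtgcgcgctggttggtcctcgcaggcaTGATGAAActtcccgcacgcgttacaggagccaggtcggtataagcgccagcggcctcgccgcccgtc

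RefSeq promoter windows of 300 bases (250 before and 50 after the start) were found for all 10 genes, 16 windows in all. The letters TGATGNAA occurred in a window of ATF3, of CHAC1 and of ASNS, and in 3.62% of the 35116 windows of all genes. PPP1R15A held TGACGTCA, the cyclic AMP response element (1.85% of all windows), and both DDIT3 windows held TGACTCA, the AP-1 element (4.95%). No member window held the p53 half-site, which 6.63% of all windows hold. These are matches of letters on both strands in short windows, not sites of binding.

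Levels between genes were compared per kilobase of gene span. In vehicle cells ATF4, the central transcription factor, had the highest level, 44.3 CPM per kb (SD 2.10, n = 2). DDIT4, which encodes the mTORC1 inhibitor REDD1, followed at 38.7 CPM per kb (SD 1.22, n = 2), and the 2 genes did not overlap. DDIT3, which encodes the pro-apoptotic factor CHOP, had 11.7 CPM per kb (SD 3.11) and GDF15, a secreted stress cytokine, 8.59 CPM per kb (SD 2.73), which overlapped. SESN2, CHAC1, TRIB3 and PPP1R15A lay between 2.50 and 2.87 CPM per kb, and ATF3 (1.31) and ASNS (0.563) were lowest. ATF3 and ASNS have the longest spans of the set, 55.371 and 76.765 kb, and the transcribed promoter of ATF3 was not resolved by counts per gene. The ASNS start used for its printed promoter lies inside the span, which runs on to 97928441. The low values of both genes per kb therefore depend on the span used, and their rank is not settled. ATF4 and DDIT4 have the shortest spans, 2.128 and 2.113 kb, so the top of the ranking depends on span as well.

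**Figure D1:**
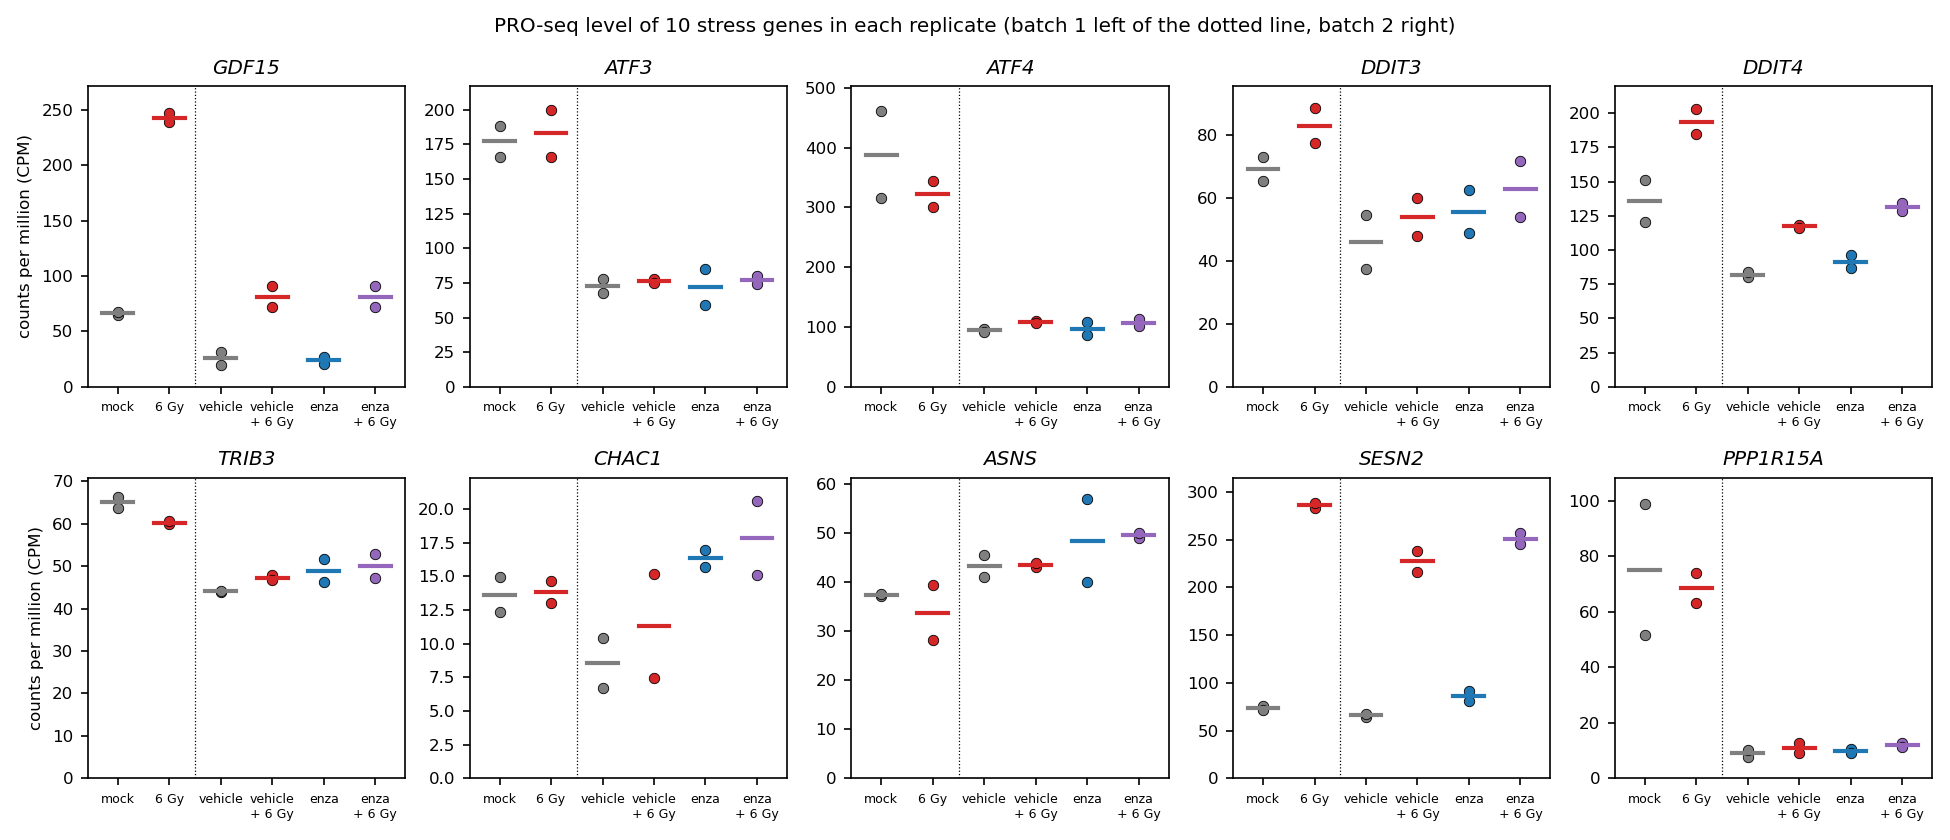
Level of each of the 10 genes in CPM (y axis, linear, from 0) in every replicate (points) of the 6 groups, with the group mean as a bar. GDF15 and SESN2 stand higher in all irradiated groups than in their controls, DDIT4 by a smaller step, and the other genes show no such step.

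After 6 Gy in vehicle cells, GDF15, SESN2 and DDIT4 rose and the other 7 genes did not pass the test. SESN2, a leucine sensor that restrains mTORC1, had 64.0 and 67.7 CPM in the vehicle replicates and 239 and 217 CPM in the irradiated ones. GDF15 had 31.8 and 20.1 CPM in vehicle and 91.2 and 71.9 CPM with radiation. DDIT4 had 80.0 and 83.7 CPM in vehicle and 119 and 116 CPM with radiation. In each of the 3 genes both irradiated replicates lay above both vehicle replicates. The fold changes were 3.46 for SESN2 (log2 1.79, SE 0.0946, edgeR adjusted p = 3e-07), 3.16 for GDF15 (log2 1.66, SE 0.196, edgeR adjusted p = 0.000443) and 1.43 for DDIT4 (log2 0.52, SE 0.0866, edgeR adjusted p = 0.00736). These 3 of 10 called genes stand beside 1.10% of the 28651 genes tested in either direction and 0.743% called higher. With the replicate number as a block, edgeR called 4.59% of all genes and 3 of the 10. Of all 10 genes, 5 (GDF15, SESN2, DDIT4, ATF4 and TRIB3) had both irradiated replicates above both vehicle ones, as did 21.8% of all genes. DDIT4 kept its size but not its call when any 1 of the 4 samples was left out (log2 0.49 to 0.55, edgeR adjusted p 0.0554 to 0.149).

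Under enzalutamide the same 3 genes were called after 6 Gy. SESN2 had 81.4 and 91.5 CPM with enzalutamide alone and 257 and 246 CPM with radiation added. GDF15 had 27.2 and 21.0 CPM against 91.1 and 71.8 CPM, and DDIT4 had 86.6 and 96.6 CPM against 134 and 128 CPM. None of the 3 overlapped between its groups. With PPP1R15A, 4 of the 10 genes had both irradiated replicates above both others, as did 18.6% of all genes. The log2 fold changes were 1.54 for SESN2 (SE 0.0940, edgeR adjusted p = 1.14e-06), 1.74 for GDF15 (SE 0.200, edgeR adjusted p = 0.000407) and 0.52 for DDIT4 (SE 0.0868, edgeR adjusted p = 0.00838). In this comparison edgeR called 0.918% of genes, 0.625% as higher, and 3.32% and again 3 of the 10 with the block. DDIT4 lost the call in 3 of the 4 fits with 1 sample left out (edgeR adjusted p 0.0544 to 0.0966), the exception being the fit without enzalutamide replicate 4.

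Batch 1 gave nearly the same rises for GDF15 and SESN2. GDF15 had 65.1 and 67.7 CPM in mock and 247 and 239 CPM after 6 Gy (log2 1.87, SE 0.123, edgeR adjusted p = 1.85e-06). SESN2 had 75.6 and 72.1 CPM in mock and 283 and 289 CPM after 6 Gy (log2 1.95, SE 0.126, edgeR adjusted p = 1.74e-06). Replicates of both genes were far apart between groups and close within them. DDIT4 had 151 and 121 CPM in mock and 203 and 185 CPM after 6 Gy, and its log2 fold change of 0.51 (SE 0.138) did not pass (edgeR adjusted p = 0.0819). Without mock replicate 1 it was 0.68 (edgeR adjusted p = 0.000408). In batch 1, 4 of the 10 genes (GDF15, SESN2, DDIT4 and DDIT3) had both irradiated replicates above both mock ones, as did 20.3% of all genes, and TRIB3 had both below, as did 19.7%. In batch 1 edgeR called 2.82% of 25889 genes, 2.00% as higher, and 2 of the 10 members. Both batches were also put in 1 fit, without the enzalutamide groups. There GDF15 (log2 1.76), SESN2 (log2 1.86) and DDIT4 (log2 0.51, edgeR adjusted p = 0.000208) were called. Of 29195 genes 4.05% were called, and 2.39% were called higher. No member's response differed between batches by the test of the difference, in which edgeR called 0.106% of genes. ATF4 had the largest difference there (log2 -0.50, SE 0.202, edgeR adjusted p = 0.82). With only the t2 libraries of batch 1, that test called ATF4 (log2 -0.56, edgeR adjusted p = 0.0181), DDIT4 (-0.58, edgeR adjusted p = 0.00811), TRIB3 (-0.43, edgeR adjusted p = 0.0366) and PPP1R15A (-1.68, edgeR adjusted p = 0.000498). It then called 5646 of 27773 genes in all.

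**Figure D2:**
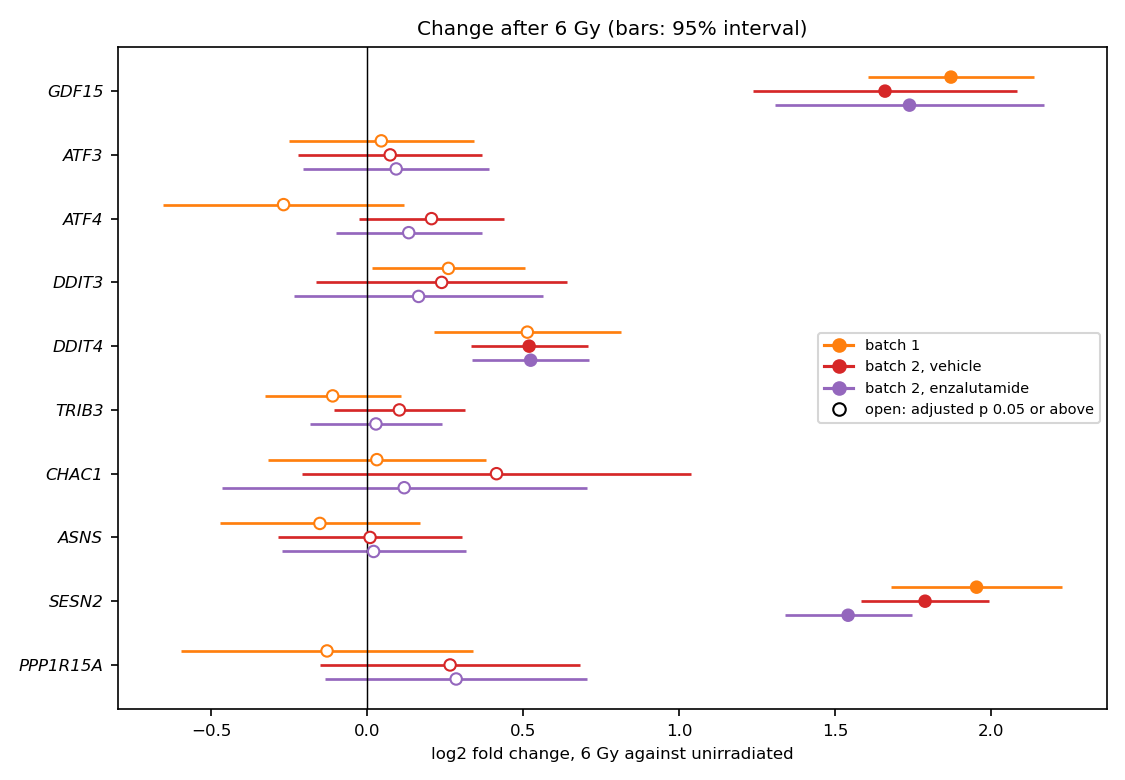
Log2 fold change after 6 Gy (x axis) for each gene in batch 1, in vehicle cells and in enzalutamide-treated cells of batch 2, with 95% intervals, filled where the adjusted p is under 0.05. GDF15 and SESN2 lie between 1.54 and 1.95 in all 3 arms, DDIT4 between 0.51 and 0.52, and the other 7 genes have open points in every arm.

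The 7 genes without a call include the factors that carry the response. ATF4 had 97.4 and 91.0 CPM in vehicle and 111 and 106 CPM with 6 Gy (log2 0.21, SE 0.107, edgeR adjusted p = 0.5). ATF3, an immediate early bZIP factor often used as a stress marker, had 77.9 and 67.4 CPM in vehicle and 77.4 and 75.2 CPM with 6 Gy (log2 0.07, SE 0.137, edgeR adjusted p = 0.875). For ATF3 the groups overlapped, and its 95% interval ran from a fold of 0.857 to 1.29. DDIT3 (log2 0.24), TRIB3, a pseudokinase that feeds back on ATF4 (log2 0.10), CHAC1, a glutathione-degrading enzyme (log2 0.41), ASNS, asparagine synthetase (log2 0.01), and PPP1R15A, which encodes the eIF2 phosphatase subunit GADD34 (log2 0.27), were likewise not called. Intervals of 4 of the 7 (ATF3, ATF4, TRIB3 and ASNS) stayed within 1.5-fold either way in vehicle cells, and those of DDIT3, CHAC1 and PPP1R15A did not. CHAC1 was the least certain, with irradiated replicates at 15.1 and 7.42 CPM that overlapped vehicle replicates at 10.4 and 6.72 CPM. In batch 1 the 7 genes lay between log2 -0.27 (ATF4) and 0.26 (DDIT3). Without mock replicate 2, which leaves 1 mock sample, the log2 changes there were -0.52 for ATF4 and -0.53 for PPP1R15A. ATF4 had 614 CPM in mock library t1 of replicate 1, against 342, 277 and 382 CPM in the other mock libraries. Its irradiated libraries of batch 1 had 250 to 361 CPM. That 1 high library also enters the batch 1 change of ATF4, its difference between batches and its mock level. In both batches together, DDIT3 was called without vehicle replicate 3 (0.38, edgeR adjusted p = 0.0382). DDIT3 shares its end with MARS1, and counting by strand is not stated, so reads of these 2 genes cannot be told apart there. MIR3189, which lies inside GDF15, had a log2 change of 3.16 in batch 1 (edgeR adjusted p = 0.000673), on reads that GDF15 may share, and of 1.40 in vehicle cells (edgeR adjusted p = 0.359), where it was not called.

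The summed t1 and t2 libraries of batch 1 also differed along an axis that crossed the groups. The first principal component over 15493 genes held 57.2% of the variance and put the irradiated t1 and mock t2 libraries on one side of zero (scores -32.5 to -20.0) and the irradiated t2 and mock t1 libraries on the other (5.66 to 40.9). The mock t1 library of replicate 1, at 5.66, lay near the middle. PPP1R15A moved with it: 83.2 and 27.3 CPM in mock t1, 107 and 88.4 in mock t2, 91.5 and 102 in irradiated t1, and 43.8 and 30.8 in irradiated t2. Its range within mock was therefore 3.92-fold. SESN2 kept irradiated libraries (256 to 327 CPM) above all mock ones (56.1 to 87.4 CPM), and so did GDF15 (199 to 275 against 55.2 to 84.0 CPM). DDIT4 had 228 and 231 CPM in irradiated t1 against 122 and 102 in mock t1, but 160 and 146 in irradiated t2 against 168 and 152 in mock t2. Its log2 change was 1.06 in t1 libraries alone (edgeR adjusted p = 0.000499) and -0.06 in t2 alone (edgeR adjusted p = 0.691). Set against libraries on the same side of zero, it was 0.53 (irradiated t1 with mock t2, edgeR adjusted p = 0.0281) and 0.44 (irradiated t2 with mock t1, edgeR adjusted p = 0.249). PPP1R15A had opposite calls, log2 0.88 in t1 alone (edgeR adjusted p = 0.0411) and -1.42 in t2 alone (edgeR adjusted p = 1.35e-05), and CHAC1 was called lower in t2 alone (log2 -0.73, edgeR adjusted p = 0.00927). ATF4 (log2 -0.36, edgeR adjusted p = 0.0453), TRIB3 (-0.33, edgeR adjusted p = 0.0191) and ASNS (-0.46, edgeR adjusted p = 0.0137) were also called lower in t2 alone. The fit of t1 alone called 3995 of 23134 genes and that of t2 alone 9800 of 21930, in both directions. What the axis stands for was not tested.

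**Figure D3:**
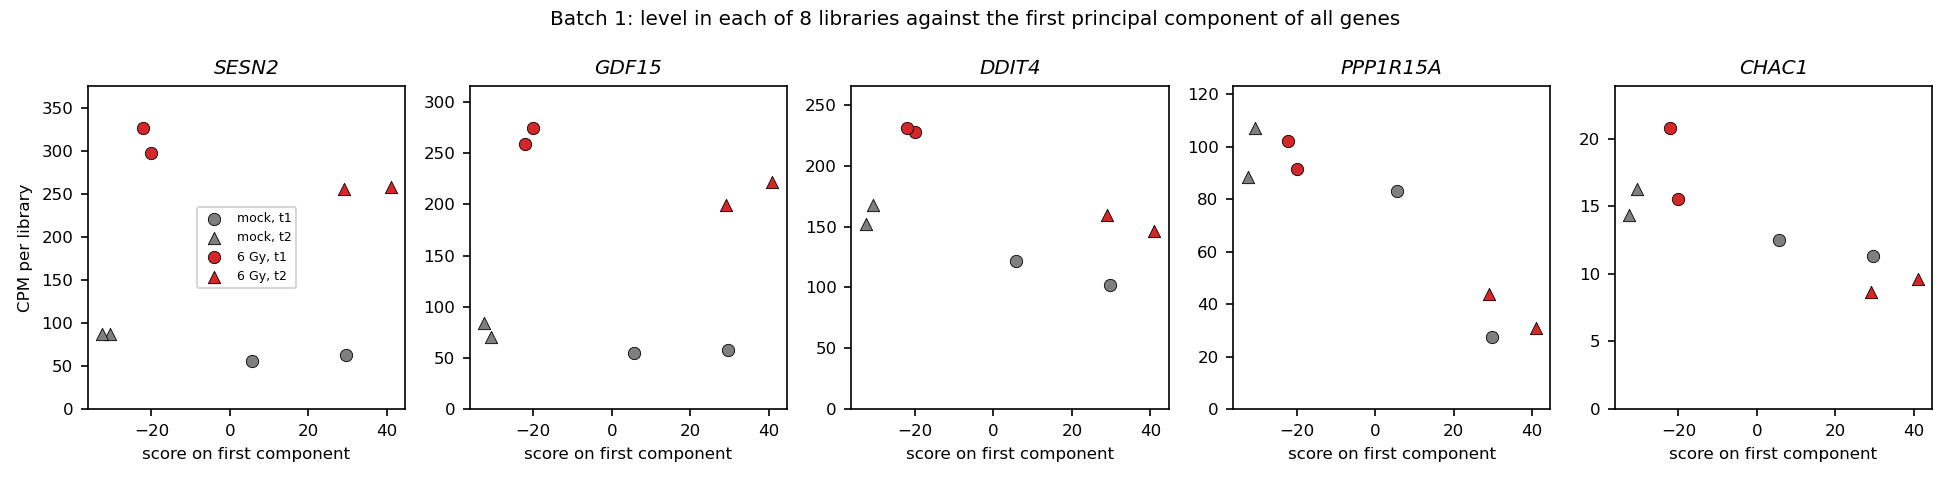
Level in CPM (y axis) of 5 genes in the 8 libraries of batch 1 against each library's score on the first principal component (x axis); colour gives mock or 6 Gy and shape gives t1 or t2. SESN2 and GDF15 separate by colour at every score, while PPP1R15A and CHAC1 are lower at the highest scores in both groups.

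Other genes of the pathway, set by lists of names, were read beside the members. In vehicle cells 0 of 14 eIF2 kinases and translation factors, 0 of 7 ATF4 partner factors, 0 of 12 amino acid synthesis genes, 0 of 8 tested amino acid transporters, 0 of 12 tRNA synthetases, 0 of 12 tested other ATF4 targets and 0 of 18 genes of the ATF6 and XBP1 arms passed with edgeR after 6 Gy. Unadjusted p under 0.05 was reached by 1, 2, 2, 1, 4, 1 and 0 of them, and by 3161 of the 28651 genes tested. With the replicate block the same lists had 1, 0, 1, 1, 2, 2 and 0 called genes, all higher. Beside them, 4.59% of all genes were called in either direction and 2.56% were called higher. They were the translation factor subunit EIF2S2 (log2 0.28), PSPH (0.30), the amino acid transporter SLC1A5 (0.37), MARS1 (0.29), SARS1 (0.29), JMJD8 (0.41) and ADM2 (0.41), with edgeR adjusted p from 0.00295 (JMJD8) to 0.0439 (SARS1). Under enzalutamide 0 genes of these lists were called after 6 Gy without the block, and NUPR1 (0.27), PSPH (0.33) and JMJD8 (0.36) with it. There 0.625% of all genes were called higher without the block and 1.87% with it. Blocked calls were named after their values were seen. After 6 Gy in vehicle cells, without the block, the list medians were log2 0.06 to 0.20, beside -0.01 over all genes and 0.25 over the 10 members. CEBPB, a bZIP partner of ATF4 (log2 0.01), and HSPA5, the chaperone BiP (log2 0.12), were not called. In batch 1 the fit without the block called 1 gene of these lists, beside 2.00% of all genes called higher. It was SARS1, the seryl-tRNA synthetase (log2 0.82, SE 0.110, edgeR adjusted p = 8e-04). The list medians in batch 1 were log2 -0.05 to 0.07, beside -0.002 over all genes and 0.04 over the 10 members. With both batches together SARS1, PSPH (phosphoserine phosphatase, log2 0.31) and JMJD8 (log2 0.33) were called higher, beside 2.39% of all genes.

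Reference targets of p53 rose as a group in the same cells. All 20 of 20 were called higher in vehicle cells (median log2 1.71), under enzalutamide (1.55) and in batch 1 (2.27). Of all genes tested, 0.743%, 0.625% and 2.00% were called higher in these comparisons. The list was chosen with earlier results of these data known, so this count is not an independent result. In vehicle cells CDKN1A, the cell cycle inhibitor p21, rose by log2 3.02 (edgeR adjusted p = 5.5e-07) and MDM2, the ligase that degrades p53, by 2.10 (edgeR adjusted p = 1.63e-07). BTG2 (2.43), FDXR (2.85) and DDB2 (2.20) were also among those with the smallest p. In vehicle cells and under enzalutamide the rises of SESN2 and GDF15 lay near the list median in size. In batch 1 they (log2 1.95 and 1.87) lay below the median of 2.27. The rise of DDIT4 lay below the median in every arm. Among relatives of the members, SESN1 is another p53-responsive sestrin and itself 1 of the 20 reference targets. SESN1 rose by log2 0.77 in vehicle cells (edgeR adjusted p = 0.00165), 0.79 under enzalutamide and 1.37 in batch 1. SESN3 was not called (log2 -0.26 in vehicle cells, edgeR adjusted p = 0.517). GADD45A, a p53-responsive growth arrest gene, rose by 1.40 in vehicle cells and 1.33 in batch 1. DDIT4L, the paralog of DDIT4, was at most about 1.06 CPM per group on average and was not tested in batch 1.

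**Figure D4:**
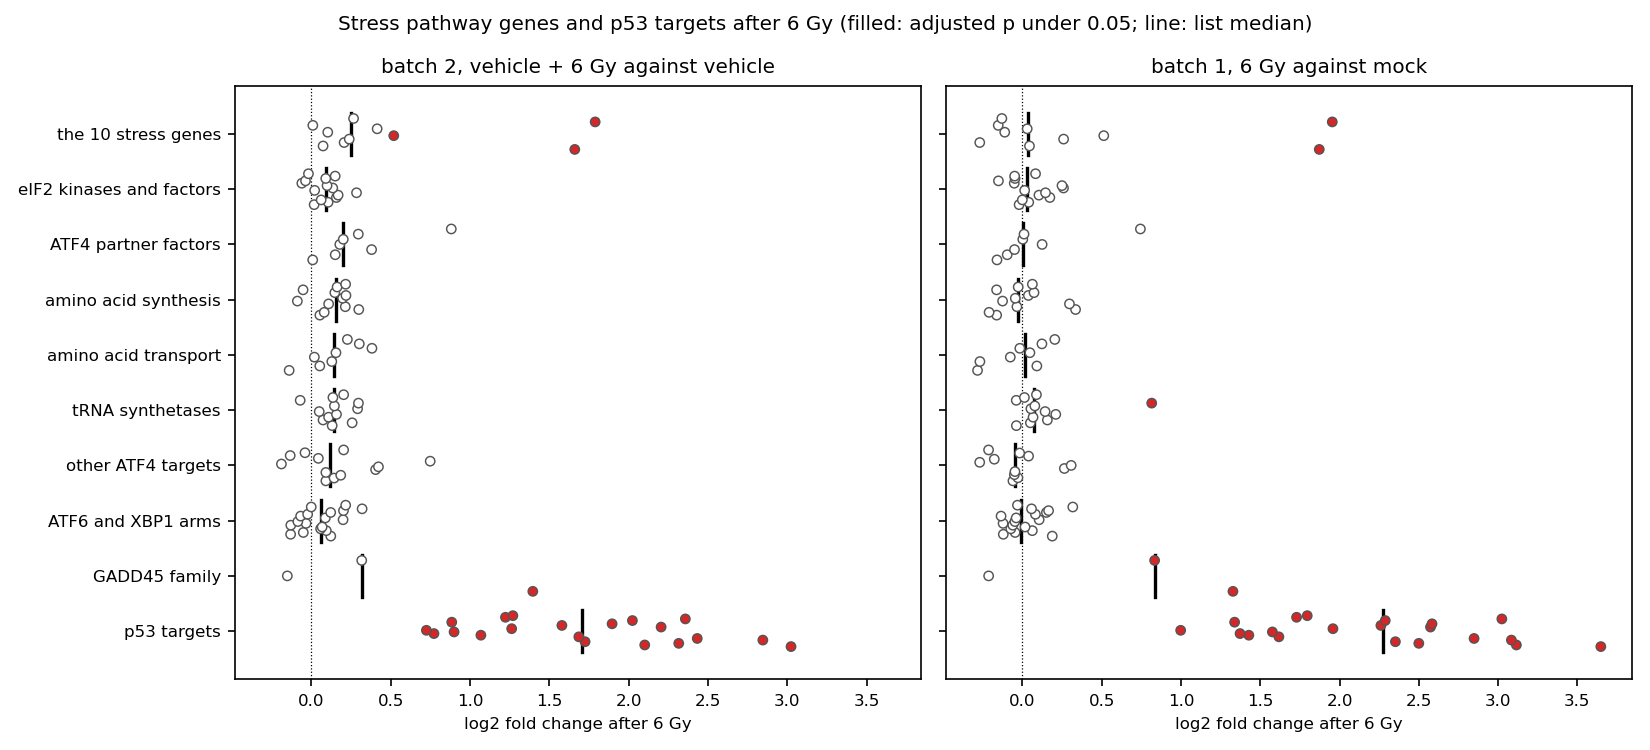
Log2 fold change after 6 Gy (x axis) of each gene of 10 lists (rows) in vehicle cells of batch 2 (left) and in batch 1 (right), filled where the adjusted p is under 0.05, with the list median as a line. The p53 targets are all filled, while among the ATF4 and unfolded protein lists only SARS1 in batch 1 is, in these fits without a replicate block.

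Enzalutamide moved none of the 10 genes past the threshold in the fit without replicate numbers. CHAC1 had 10.4 and 6.72 CPM in vehicle and 17.0 and 15.7 CPM with enzalutamide, and 15.1 and 7.42 CPM against 20.6 and 15.1 CPM in irradiated cells. It was higher with enzalutamide in all 4 same-numbered comparisons, though the irradiated groups overlapped. Without radiation 4 of the 10 genes (DDIT4, TRIB3, CHAC1 and SESN2) had both enzalutamide replicates above both vehicle ones, as did 3998 of the 28651 genes tested. With radiation 3 did (DDIT4, ASNS and SESN2), beside 4702 of all genes. Averaged over radiation its log2 fold change was 0.79 (SE 0.191, edgeR adjusted p = 0.355), beside 0.0628% of genes called, all lower. With the replicate number as a block the value was 0.80 (SE 0.112, edgeR adjusted p = 0.000239), and CHAC1 rose in that fit. SESN2 (log2 0.26, edgeR adjusted p = 0.439) reached 0.25 with an edgeR adjusted p of 0.0298 with the block, and DDIT3 (0.25, edgeR adjusted p = 0.828) reached 0.25 with an edgeR adjusted p of 0.0165. Both were higher with enzalutamide in all 4 same-numbered comparisons. So were DDIT4 and TRIB3, which the block did not call (edgeR adjusted p 0.133 and 0.402). The share of all genes with this pattern was not counted, so the pattern is not read as a result about these genes. The block raised the share of all genes called to 0.949%. Without radiation it called CHAC1 (log2 0.93, edgeR adjusted p = 0.00367) and SESN2 (0.39, edgeR adjusted p = 0.039), and with radiation neither (CHAC1 0.68, edgeR adjusted p = 0.0804), beside 0.192% of genes called in each arm. The unblocked fits of these arms called 0.0105% of genes each. GDF15 (-0.04), ATF4 (0.02) and ATF3 (0.01) stayed closest to zero.

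With the block, 9 further genes of the pathway lists and of the list of member paralogs passed for enzalutamide averaged over radiation. Higher were 2 of 12 amino acid synthesis genes, PSAT1 (log2 0.22) and PCK2 (0.34), and 1 of 8 tested transporters, the cystine transporter SLC7A11 (0.21). So were 3 of 12 tRNA synthetases, AARS1 (0.20), CARS1 (0.30) and MARS1 (0.26), and 2 of 12 tested other ATF4 targets, STC2 (0.23) and CCPG1 (0.23). The paralog TRIB2 (-0.26), 1 of 9, was lower. The lists of eIF2 kinases and translation factors, ATF4 partner factors and the ATF6 and XBP1 arms had none. Of all genes, 0.283% were called higher and 0.667% lower in that fit. Without the block none of the pathway lists had a called gene for enzalutamide. In the blocked fit the edgeR adjusted p of the 9 genes ran from 0.00158 (PCK2) to 0.0496 (CCPG1). These 9 were chosen after their values were seen, and their sizes are small beside the radiation responses of SESN2 and GDF15.

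**Figure D5:**
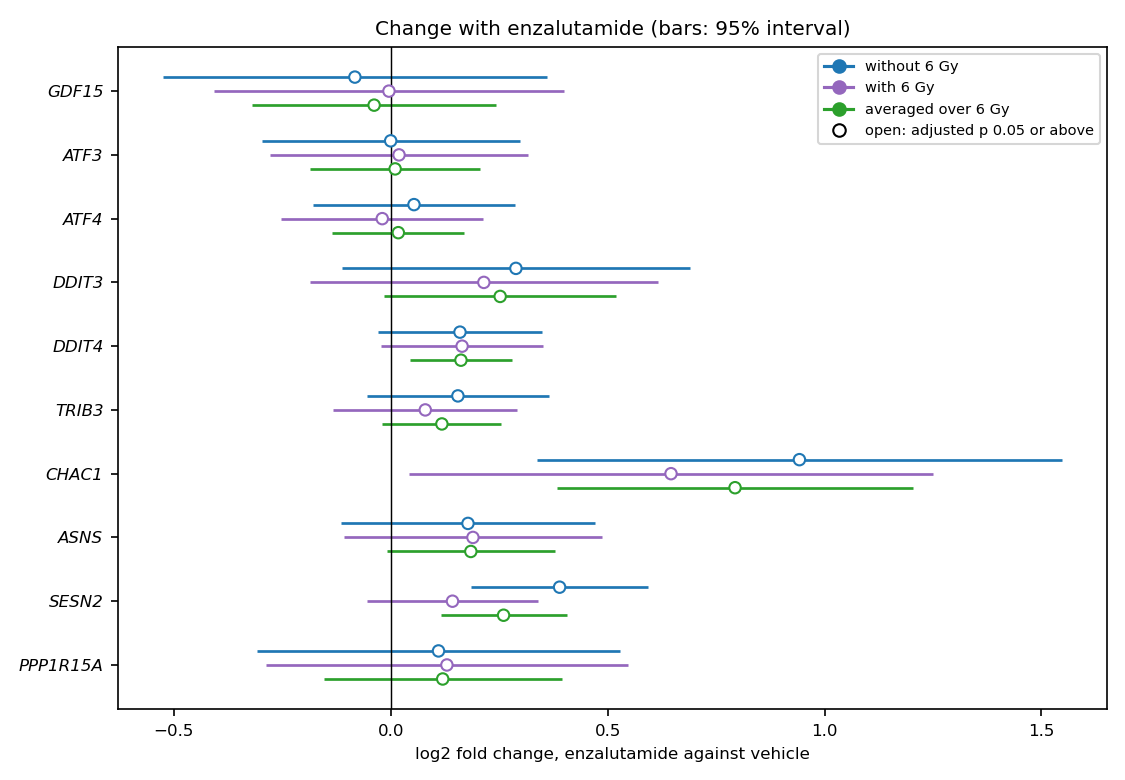
Log2 fold change with enzalutamide (x axis) for each gene without 6 Gy, with 6 Gy and averaged over both, from the fit without a replicate block, with 95% intervals. All points are open (adjusted p 0.05 or above), and CHAC1 lies furthest to the right at 0.94, 0.65 and 0.79.

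The interaction of radiation and enzalutamide was called for none of 28651 genes with edgeR (343 at an unadjusted p under 0.05, 0 with DESeq2), members included. SESN2 had the interaction with the smallest p of the 10 (log2 -0.25, SE 0.131, unadjusted p = 0.0817 with edgeR), with a 95% interval from -0.53 to 0.04. With the replicate block it was -0.24, with an interval from -0.47 to -0.015 that leaves out zero. It was not called there either, in a fit that called 1 of 28651 genes. Without the block the interval for GDF15 ran from -0.52 to 0.68, and for DDIT4 from -0.26 to 0.27, and both intervals include zero.

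Unirradiated levels differed between batches. Mock cells of batch 1 exceeded vehicle cells of batch 2 by 8.27-fold for PPP1R15A, 4.12-fold for ATF4, 2.56-fold for GDF15 and 2.44-fold for ATF3, and 10.4% of 29195 genes were at least 2-fold higher. DDIT4 (1.66), CHAC1 (1.59), DDIT3 (1.51) and TRIB3 (1.48) differed less, SESN2 by 1.12-fold, and ASNS was lower (0.864-fold). CPM was scaled within each batch, so no scaling between batches enters these ratios. Batch and the presence of DMSO cannot be told apart.

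Profiles were compared as log2 levels relative to the control mean of the own batch over 12 replicates, by the root mean square difference among 18674 genes. GDF15 was nearest to PLK3 (0.19), HELZ-AS1 (0.21), ACER2 (0.24), NINJ1 (0.25) and PPM1D (0.26). DDIT4 was nearest to FRMD8 (0.09), FBXO44, ENSG00000246130, INKA2 and SAC3D1 (0.10). ATF3 lay only 0.14 from a flat profile, and its nearest genes (KCNJ10, CCDC43, ST8SIA6, FRG1BP and ZNF460-AS1) were flat as well. Among the members, GDF15 and SESN2 were 0.30 apart, and each was at least 0.87 from every other member. HELZ-AS1 and ZNF460-AS1 are antisense genes, and strand use in counting is not stated.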

How the data were processed

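The authors deposited 1 table of raw read counts per Ensembl gene for each batch, whole numbers per the values. Per the submitters' processing notes, the build was hg38 and cutadapt 1.8.1, Bowtie2 2.4.4 and SAMtools 1.9 were used. The counting tool, annotation and use of strand are not given in the sources used here. Identifiers were matched to symbols with a gene name table (60463 of 60605 matched), and t1 and t2 were summed per batch 1 replicate. Genes passed filterByExpr, libraries were TMM-scaled, and edgeR 4.0.16 (R 4.3.3) quasi-likelihood tests were two-sided with Benjamini-Hochberg adjustment over all genes tested and a threshold of 0.05. Fits of a single batch held all its samples. Fits over both batches had a batch term and left out the enzalutamide groups. CPM was scaled within each batch. Same-numbered samples of batch 2 deviated together (correlation 0.246 to 0.449 over 6 pairs of groups), so blocked values of batch 2 stand beside the calls they change, and those of batch 1 in the closing section. That pairing rests on shared replicate numbers in the labels. Alternatives were other scalings, no filter, DESeq2 1.42.0, the block, t1 or t2 alone, and each sample left out. Steps were tested on simulated data. With spread drawn gene by gene, false calls exceeded the nominal share in most comparisons, so adjusted p near the threshold may be too small. Promoter sequences and spans are from RefSeq GRCh38.p14.

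The members and gene lists were chosen with earlier results of these data known. Genes named are the 10 members, a fixed panel (SESN1, SESN3, DDIT4L, CDKN1A, MDM2, CEBPB, HSPA5), up to 4 called genes with the smallest p per list in the radiation and averaged enzalutamide comparisons, and the 5 nearest profiles of GDF15, ATF3 and DDIT4. Some of the luminal markers checked are not reported here.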

Additional observations from a re-analysis of the deposited data

Results flagged for a closer look

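Among the 4 mock libraries of batch 1, DDIT3 had 71.0, 72.4, 63.2 and 71.1 CPM. The lowest, replicate 2 t1, lay apart from the rest by 0.844 of the whole range, and about 1 in 20 groups shows such a gap by chance. MDM2, the ligase that degrades p53, rose more after radiation in batch 1 than in batch 2 vehicle cells, by log2 0.989 (edgeR adjusted p = 0.0268 for the difference).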

How the results depend on the processing

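Each member was recomputed under every alternative, 1090 values in all. Of these, 916 kept direction and side of the threshold, 27 passed where the reported value did not, 8 no longer passed and 139 changed sign. In 2 of the sign changes a value passed the threshold in 1 of the fits compared (CHAC1 in t2 libraries and PPP1R15A in t1 libraries, radiation in batch 1). GDF15 and SESN2 were called after radiation under every alternative run in every arm, with log2 values from 1.37 to 2.26 and from 1.46 to 2.41. CHAC1 with enzalutamide averaged over radiation passed with the block and with no filter (0.79, edgeR adjusted p = 1.57e-08), and SESN2 with no filter (0.26, edgeR adjusted p = 0.0271). In batch 1 the block, with 9.01% of all genes called, also called DDIT3 (0.26, edgeR adjusted p = 0.0164) and DDIT4 (0.52, edgeR adjusted p = 4.53e-06), and in both batches, with 6.69% of all genes called, DDIT3 (0.24, edgeR adjusted p = 0.0196). Among the pathway lists the block called EIF2B3 (0.25), PSPH (0.34), MTHFD2 (0.30), SARS1 (0.82), JMJD8 (0.27) and MANF (0.32) higher and SLC7A11 (-0.27) and SLC3A2 (-0.26) lower in batch 1. In both batches it called EIF2S2 (0.21), FOSL1 (0.81), PSPH (0.31), SARS1 (0.53), JMJD8 (0.33) and ADM2 (0.36) higher and SLC7A11 (-0.22) lower, and among relatives of the members SESN3 lower (-0.20, edgeR adjusted p = 0.0288). DDIT4 in batch 1 passed with DESeq2 (adjusted p = 0.0267) and with no filter (edgeR adjusted p = 0.00191), and in both batches it was lost in t2 libraries alone (0.23, edgeR adjusted p = 0.273). In batch 1 the same-numbered samples had a correlation of 0.336 from 1 pair of groups, which share only a number. Fits with 1 sample in a group assume that it varies like the other groups. The comparisons against libraries on the same side of zero on the first principal component of batch 1 were added after seeing the data. The cause of these shifts was not tested.

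With no filter on low counts, the count of called genes was 624 for radiation in vehicle cells, 556 for radiation under enzalutamide, 1157 for radiation in batch 1, 119 for the difference between batches, 74 for enzalutamide without radiation, 64 for enzalutamide with radiation, 230 for enzalutamide averaged over radiation and 32 for the interaction. With the replicate block, the count of called genes was 1315 for radiation in vehicle cells, 951 for radiation under enzalutamide, 2332 for radiation in batch 1, 1954 for radiation in both batches, 96 for the difference between batches, 55 for enzalutamide without radiation, 55 for enzalutamide with radiation, 272 for enzalutamide averaged over radiation and 1 for the interaction. In t1 libraries alone, the count of called genes was 3995 for radiation in batch 1 and 452 for the difference between batches. In t2 libraries alone, the count of called genes was 9800 for radiation in batch 1, 657 for radiation in both batches and 5646 for the difference between batches. With irradiated t2 against mock t1, the count of called genes was 445 for radiation in batch 1 and 10 for the difference between batches. With DESeq2, the count of called genes was 13 for enzalutamide without radiation, 7 for enzalutamide with radiation and 58 for enzalutamide averaged over radiation. With 1 sample left out, the count ranged over 161 to 210 for radiation in vehicle cells, 139 to 434 for radiation under enzalutamide, 587 to 1509 for radiation in batch 1, 3 to 10 for enzalutamide without radiation, 1 to 4 for enzalutamide with radiation, 7 to 36 for enzalutamide averaged over radiation and 0 to 4 for the interaction.

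Sign changes of members are given as log2 values. With total counts and no scaling factors, it was ASNS -0.026 for radiation in vehicle cells, and ATF3 0.015, DDIT3 0.067, DDIT4 0.036 for the difference between batches, and GDF15 0.018, ATF4 0.00047 for enzalutamide with radiation. In t2 libraries alone, it was ATF3 -0.22, DDIT4 -0.063, CHAC1 -0.73 for radiation in batch 1, and ATF3 -0.079, CHAC1 -0.097, PPP1R15A -0.63 for radiation in both batches, and GDF15 -0.19, SESN2 -0.22 for the difference between batches. With irradiated t1 against mock t2, it was ATF3 -0.13, TRIB3 0.0081 for radiation in batch 1, and ATF3 -0.024, ATF4 0.11, TRIB3 0.066 for radiation in both batches, and DDIT3 0.060, DDIT4 0.024 for the difference between batches. In t1 libraries alone, it was TRIB3 0.098, ASNS 0.15, PPP1R15A 0.88 for radiation in batch 1, and TRIB3 0.077, ASNS 0.046 for radiation in both batches, and ATF3 0.23, DDIT3 0.14, DDIT4 0.51, CHAC1 0.20, ASNS 0.11, PPP1R15A 0.59 for the difference between batches. With irradiated t2 against mock t1, it was CHAC1 -0.36, ASNS 0.072 for radiation in batch 1, and ASNS 0.049, PPP1R15A -0.15 for radiation in both batches, and ATF3 0.13, ASNS 0.048 for the difference between batches. With RLE size factors, it was TRIB3 0.014 for radiation in both batches, and ATF3 0.00079 for enzalutamide without radiation. With no filter on low counts, it was TRIB3 0.030 for radiation in both batches. With DESeq2, it was TRIB3 0.014 for radiation in both batches. For radiation in vehicle cells, leaving out 1 sample gave ATF3 -0.026 to 0.18, DDIT3 -0.011 to 0.54, CHAC1 -0.20 to 0.83 and ASNS -0.064 to 0.086. For radiation under enzalutamide, leaving out 1 sample gave ATF3 -0.13 to 0.39, ATF4 -0.011 to 0.31, DDIT3 -0.028 to 0.36, TRIB3 -0.045 to 0.12, CHAC1 -0.092 to 0.33 and ASNS -0.20 to 0.32. For radiation in batch 1, leaving out 1 sample gave ATF3 -0.091 to 0.17, ATF4 -0.52 to 0.026, CHAC1 -0.10 to 0.17, ASNS -0.41 to 0.074 and PPP1R15A -0.53 to 0.40. For radiation in both batches, leaving out 1 sample gave ATF4 -0.12 to 0.13, TRIB3 -0.044 to 0.037, CHAC1 -0.066 to 0.40, ASNS -0.15 to 0.057 and PPP1R15A -0.16 to 0.33. For the difference between batches, leaving out 1 sample gave GDF15 -0.20 to 0.49, ATF3 -0.18 to 0.056, DDIT3 -0.32 to 0.25, DDIT4 -0.17 to 0.14, CHAC1 -0.87 to 0.21, ASNS -0.43 to 0.027 and PPP1R15A -0.81 to 0.12. For enzalutamide without radiation, leaving out 1 sample gave GDF15 -0.38 to 0.27, ATF3 -0.29 to 0.23, ATF4 -0.12 to 0.20, ASNS -0.12 to 0.40 and PPP1R15A -0.078 to 0.33. For enzalutamide with radiation, leaving out 1 sample gave GDF15 -0.17 to 0.18, ATF3 -0.024 to 0.062, ATF4 -0.091 to 0.049 and PPP1R15A -0.073 to 0.37. For enzalutamide averaged over radiation, leaving out 1 sample gave GDF15 -0.14 to 0.094, ATF3 -0.10 to 0.11 and ATF4 -0.059 to 0.072. For the interaction, leaving out 1 sample gave GDF15 -0.28 to 0.38, ATF3 -0.20 to 0.31, ATF4 -0.22 to 0.10, DDIT3 -0.37 to 0.18, DDIT4 -0.070 to 0.084, TRIB3 -0.15 to 0.016, CHAC1 -0.70 to 0.32, ASNS -0.21 to 0.31 and PPP1R15A -0.20 to 0.26.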
